A study of Mus musculus with 21 samples.

Results

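The cytochrome P450 genes of families 1 to 4 were followed in mouse liver, in animals with diet-induced steatohepatitis and in animals kept on chow. Members were the protein-coding genes whose symbol starts with Cyp, a family number of 1 to 4, a subfamily letter and a gene number, with Ensembl identifiers paired to symbols through the GENCODE annotation of GRCm38. This gave 80 members among 52636 genes, of which 63 had enough counts to be tested and 17 did not. All animals were wild-type mice. They ate CDA-HFD, a high-fat diet without choline that gives its protein as amino acids, for 8 weeks (8 livers) or 16 weeks (8 livers), or normal chow for 8 weeks (5 livers, labelled week 0). There were no chow animals beside the 16-week livers, so time on the diet and age cannot be told apart there. The labels give no strain, sex, age, batch or pairing. In all 21 libraries Xist stayed at or under 0.201 CPM (counts scaled to library size) and the Y-linked Ddx3y lay between 28.97 and 104 CPM.

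P450 enzymes are haem proteins of the endoplasmic reticulum that insert an oxygen atom into fat-soluble substrates, with electrons passed on by the reductase Por. Members of these families oxidise drugs, toxins, steroids, bile acids and fatty acids, and the hepatocyte is their main site in the body. Most lie in clusters of near-identical copies, many of which are switched on by the receptors CAR, PXR, AhR or PPAR-alpha, and in mice some are kept male-specific or female-specific by the pattern of growth hormone release.

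Each library held 29037525 to 48901145 counts, and 17104 genes were tested. The 7 hepatocyte markers summed to 97316 to 386350.0 CPM (median 143549) in 8-week livers, 73779 to 105809 CPM (median 86746) in 16-week livers and 103761 to 144705 CPM (median 134737) in chow livers, the highest sum being that of 8-week replicate 3. Of them 2 were lower and 1 higher at 8 weeks, and 4 were lower and none higher at 16 weeks. Of all genes tested, 20.5% were lower and 30.8% higher at 8 weeks, and 22.5% were lower and 29.4% higher at 16 weeks. All 6 macrophage markers were higher at 8 weeks and 5 of 6 at 16 weeks, with sums of 947 to 2349.8 CPM (median 1388) in 8-week livers, 1469 to 2985 CPM (median 1731) in 16-week livers and 246 to 308 CPM (median 248) in chow livers. All 6 fibroblast markers were higher at both times, with sums of 692 to 1736 CPM (median 1325) in 8-week livers, 1480.2 to 2285 CPM (median 1923) in 16-week livers and 213 to 334 CPM (median 289) in chow livers. In such bulk tissue, fewer hepatocytes and less of a transcript in each hepatocyte cannot be told apart. Replicate 3 of the 8-week livers stood apart. Its mitochondrial transcripts made up 0.250% of counts, against 2.37 to 3.15% in 16-week livers and 4.23 to 5.34% in chow livers. It also held the highest squamous epithelial marker sum, 1757 CPM, where 6 of the 10 such markers were at 0 in every chow library, and 2361 CPM of muscle markers. The 8 pancreatic enzyme transcripts summed to 8062 CPM in 8-week replicate 4, and the other 20 libraries reached at most 381 CPM. Results that depend on replicate 3 are given with and without it.

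The P450 transcript pool of the liver was smaller on the diet. Summed over all members it was 15412 ± 3678 CPM in 8-week livers, 11081 ± 2865 CPM in 16-week livers and 27754 ± 2413 CPM in chow livers (SD, n = 8, 8 and 5). As a share of all counts this was 0.520 to 1.94% in 8-week livers, 0.812 to 1.60% in 16-week livers and 2.13 to 2.48% in chow livers. The shares of the chow livers did not overlap with those of either diet group. Cyp3a, Cyp2c and Cyp2f transcripts took smaller shares on the diet, while the share of Cyp2e1 did not separate the groups.

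**Figure D1:**
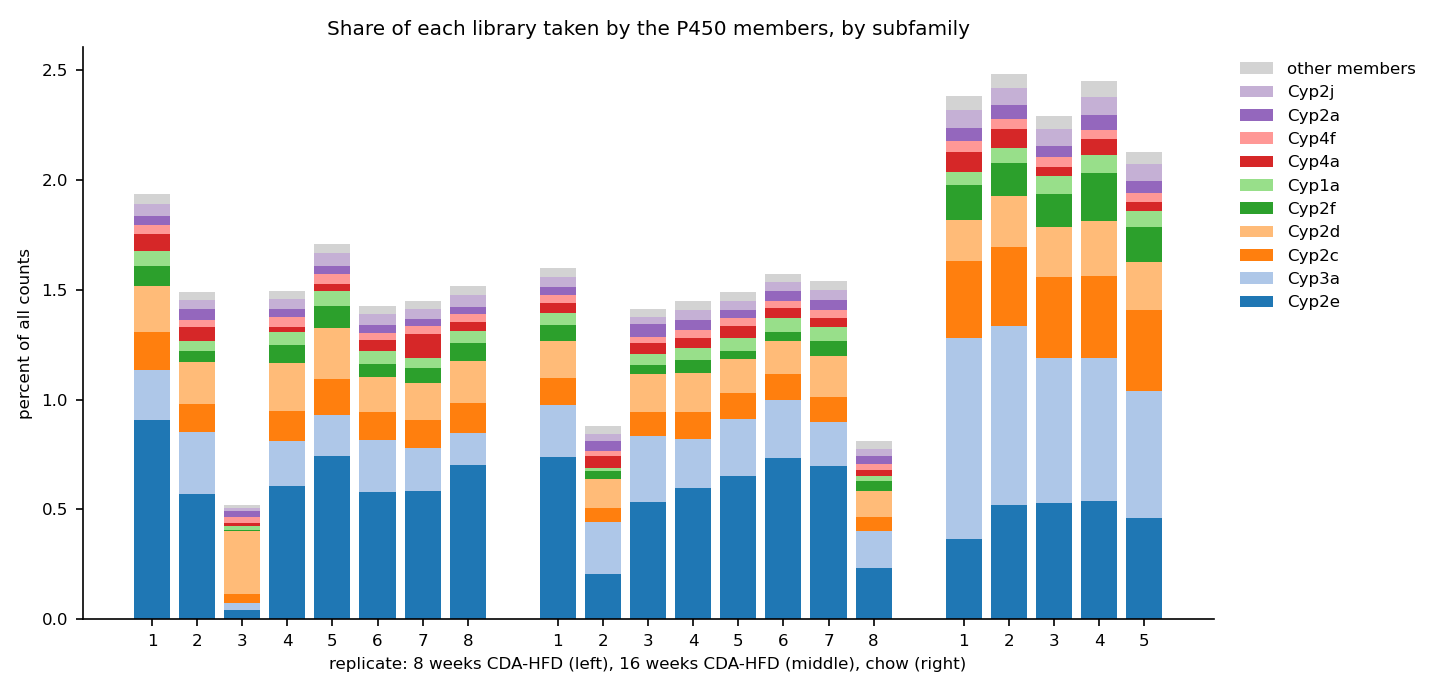
Percent of all counts taken by the P450 genes in each of the 21 libraries, stacked by subfamily, with 8-week CDA-HFD, 16-week CDA-HFD and chow livers from left to right and replicate numbers on the x axis. All bars of diet-fed livers are lower than every chow bar. Replicate 3 at 8 weeks and replicates 2 and 8 at 16 weeks are the lowest.

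At 8 weeks, 10 of the 63 measured members rose and 31 fell against chow in edgeR's quasi-likelihood test (adjusted p under 0.05 over all genes). Of all genes tested, 30.8% were called higher and 20.5% lower in the same comparison. At 16 weeks 10 rose and 41 fell, where 29.4% of all genes were called higher and 22.5% lower. The median log2 change of the measured members was -0.63 at 8 weeks and -1.12 at 16 weeks, and that of all genes tested was 0.16 at 8 weeks and 0.03 at 16 weeks. In 23 members every 8-week library lay below every chow library, and in 4 every one lay above (14.8% and 15.3% of all genes). For 16 weeks these counts were 38 below and 10 above (23.3% and 27.2% of all genes). The comparisons of 8 and of 16 weeks share their 5 chow libraries. Between the times, 4 members were higher and 19 lower at 16 than at 8 weeks, against 10.6% and 11% of all genes.

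Without replicate 3 of the 8-week livers, 11 members were higher and 32 lower at 8 weeks (background 31.4% and 25.6%). The counts at 16 weeks were then 11 and 44 (background 35% and 31.3%). Those of 16 against 8 weeks were 3 and 22 (background 14.7% and 12.4%). Scaling by total counts in place of TMM moved the median of all genes to 0.28 at 8 weeks, 0.56 at 16 weeks and 0.38 for 16 against 8 weeks. The median of the measured members was then -0.48 at 8 weeks, -0.59 at 16 weeks and 0.10 for 16 against 8 weeks. On that scale 12 members were higher and 28 lower at 8 weeks (background 35.2% and 9.76%), and 15 were higher and 30 lower at 16 weeks (background 49.4% and 5.76%). Of 16 against 8 weeks 6 were higher and 5 lower (background 26% and 1.43%), so the count of falls between the times depended on the scaling. Called with TMM but not with total counts were Cyp2a12, Cyp2c23, Cyp2d22, Cyp4a32 and Cyp4f39 at 8 weeks, and Cyp1a2, Cyp2a12, Cyp2c23, Cyp2c50, Cyp2c67, Cyp2d22, Cyp2d34, Cyp3a44, Cyp4a32, Cyp4b1 and Cyp4f17 at 16 weeks. Leaving out replicate 3 at 8 weeks ended the 8-week call of Cyp4f39 (-0.67, adjusted p = 0.0564) and no other call against chow. It added Cyp2c38, Cyp4f13 and Cyp4f15 at 8 weeks and Cyp2d10, Cyp2d26, Cyp2s1 and Cyp4f39 at 16 weeks.

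**Figure D2:**
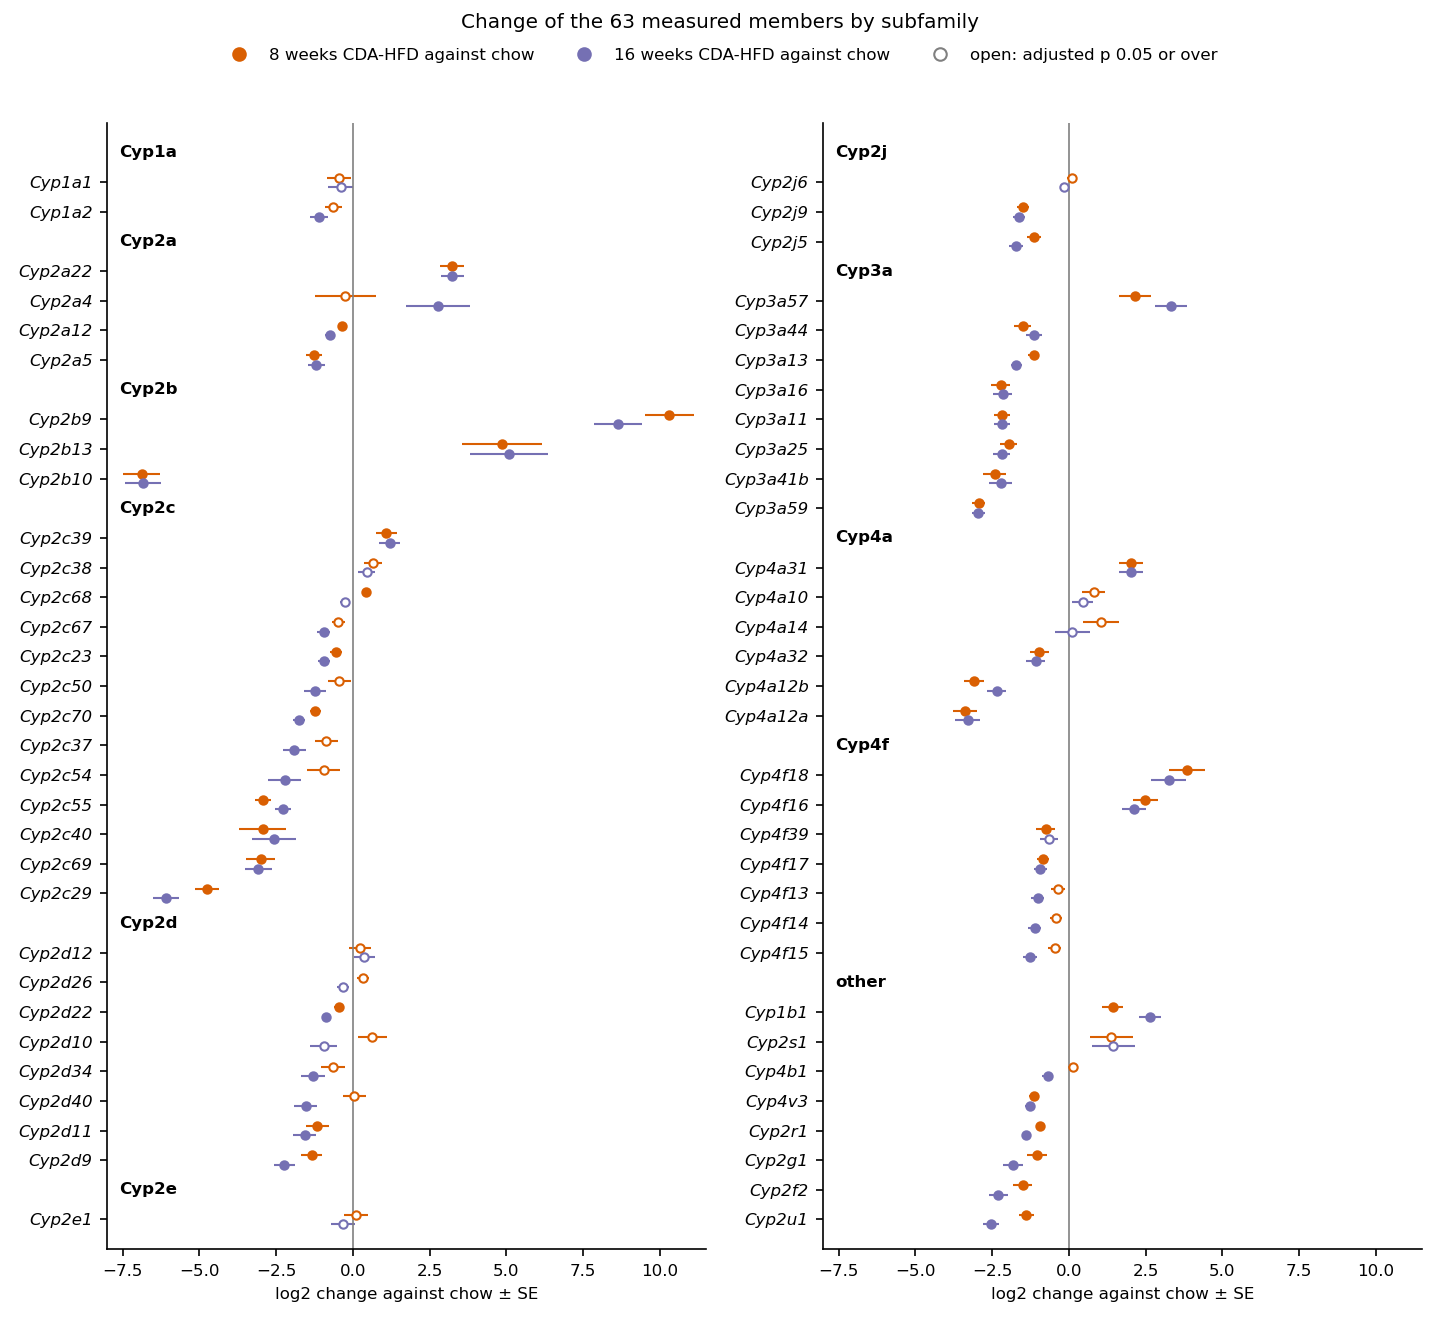
Log2 change against chow (x axis, bars show the SE) of the 63 measured members, grouped by subfamily, for 8 weeks (orange, upper) and 16 weeks (violet, lower) of CDA-HFD. Open points are genes not called. Most points lie left of 0, Cyp2b10 and Cyp2c29 farthest, and Cyp2b9 lies farthest to the right.

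The Cyp2b subfamily, whose best-known member Cyp2b10 is the classical phenobarbital-inducible target of CAR in mouse liver, showed the largest changes in both directions. Cyp2b10 had 0 to 0.504 CPM (median 0.184) in 8-week livers, 0 to 0.683 CPM (median 0.123) in 16-week livers and 34.7, 23.03, 20.3, 18.9 and 25.9 CPM in the chow livers. It was 117-fold lower at 8 weeks and 114-fold lower at 16 weeks. The log2 change was -6.88 ± 0.60 at 8 weeks (adjusted p = 2.36e-08) and -6.84 ± 0.58 at 16 weeks (adjusted p = 6.54e-09). No diet-fed liver came near the lowest chow liver. Its neighbour Cyp2b9, which in mice is mainly a female transcript, did the opposite. Cyp2b9 had 13.1 to 137 CPM (median 42.3) in 8-week livers, 7.94 to 24.2 CPM (median 16.6) in 16-week livers and 0.0735, 0.0287, 0, 0.0290 and 0.0548 CPM in the chow livers. Every diet-fed liver lay far above every chow liver. The fitted log2 change was 10.30 ± 0.80 at 8 weeks (adjusted p = 5.56e-09) and 8.63 ± 0.77 at 16 weeks (adjusted p = 1.25e-08). Cyp2b9 could only be tested because of its counts on the diet, so these adjusted p-values are no separate support for the rise. Chow libraries held 6 counts of Cyp2b9 in all, so the pooled ratio was 1428 at 8 weeks (95% exact counting interval 656 to 3891) and 435 at 16 weeks (199.8 to 1186). Both intervals cover counting error only and leave out the spread between livers. Between the times Cyp2b9 was 3.17-fold lower at 16 weeks, a log2 change of -1.67 ± 0.39 (adjusted p = 0.00525), with overlapping libraries.

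Cyp2b13, also mainly female in mice, was rare in all groups. Cyp2b13 had 0 to 0.904 CPM (median 0.157) in 8-week livers, 0.0896 to 0.771 CPM (median 0.263) in 16-week livers and 0, 0, 0.0337, 0 and 0 CPM in the chow livers. It had 65 counts over the 8-week livers, 137 over the 16-week livers and 1 over the chow livers. The pooled ratio was 37.9 at 8 weeks (95% exact counting interval 6.57 to 1521) and 50.8 at 16 weeks (8.96 to 2019), with adjusted p = 0.00435 at 8 and 0.00193 at 16 weeks. These intervals cover counting error only. Cyp2b13 could only be tested because of its counts on the diet. Its coding sequence was 92.7% identical to that of Cyp2b9, and 11.2% of the 50-base stretches of Cyp2b9 occur also in another gene, against 27.3% of those of Cyp2b13. The treatment of reads that fit both genes is not stated in the labels, so the low level of Cyp2b13 is uncertain. All Cyp2b transcripts together came to 50.8 ± 39.6 CPM in 8-week livers, 16.4 ± 6.23 CPM in 16-week livers and 24.6 ± 6.26 CPM in chow livers (SD, n = 8, 8 and 5).

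The promoters of the 3 measured Cyp2b genes are shown because these neighbouring genes moved in opposite directions. They are the 250 bases before the RefSeq transcription start (GRCm38.p6, + strand), chr7:26173159-26173408 for Cyp2b9, chr7:26061245-26061494 for Cyp2b13 and chr7:25897408-25897657 for Cyp2b10. Those of Cyp2b9 and Cyp2b13 were 99.2% identical, with capitals at the 2 bases that differ. Each was 68.8% identical to that of Cyp2b10. In Cyp2b10 capitals mark GCGTG, the core of the dioxin response element, on either strand, and TTATGCAA, the D-box bound by Dbp, Tef and Hlf, on the reverse strand.
Cyp2b9: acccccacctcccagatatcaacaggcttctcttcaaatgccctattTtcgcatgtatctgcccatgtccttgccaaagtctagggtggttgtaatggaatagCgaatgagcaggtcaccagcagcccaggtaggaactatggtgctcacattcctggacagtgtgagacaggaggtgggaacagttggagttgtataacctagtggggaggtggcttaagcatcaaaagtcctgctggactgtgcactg
Cyp2b13: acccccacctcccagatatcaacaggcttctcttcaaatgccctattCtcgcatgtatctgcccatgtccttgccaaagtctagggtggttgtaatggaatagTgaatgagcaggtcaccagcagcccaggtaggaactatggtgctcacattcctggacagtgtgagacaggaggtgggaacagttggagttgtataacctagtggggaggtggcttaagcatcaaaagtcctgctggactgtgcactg
Cyp2b10: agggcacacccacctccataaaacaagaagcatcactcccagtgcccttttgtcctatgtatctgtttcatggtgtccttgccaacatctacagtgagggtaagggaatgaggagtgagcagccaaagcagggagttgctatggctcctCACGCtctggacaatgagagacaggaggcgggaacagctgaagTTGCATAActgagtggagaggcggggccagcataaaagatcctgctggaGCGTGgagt

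**Figure D3:**
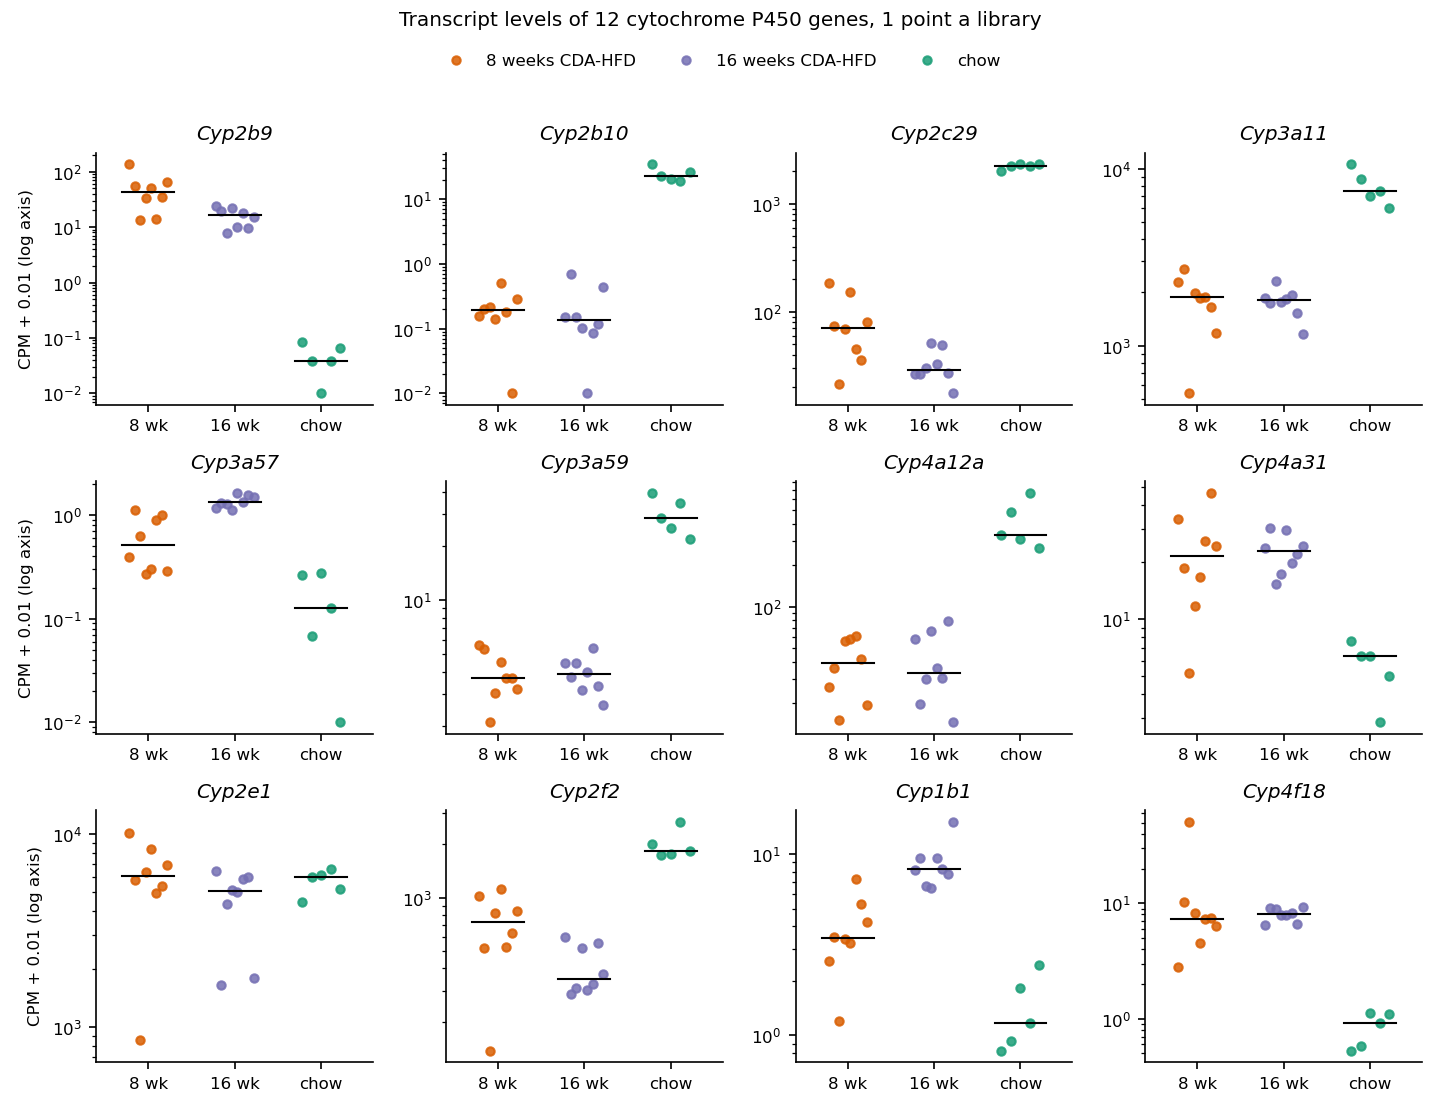
CPM + 0.01 (log axis) of 12 P450 genes in each library, in 8-week CDA-HFD, 16-week CDA-HFD and chow livers from left to right, with lines at the group medians. The groups on the diet lie above chow for Cyp2b9 and below it for Cyp2b10, Cyp2c29, Cyp3a11, Cyp3a59, Cyp4a12a and Cyp2f2. Those of Cyp2e1 overlap.

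In the Cyp3a subfamily, which holds the broad-range drug and steroid oxidases, 7 of 8 measured members fell and 1 rose at both times. Of all genes, 20.5% fell and 30.8% rose at 8 weeks, and 22.5% fell and 29.4% rose at 16 weeks. All 7 Cyp3a members that fell had no diet-fed liver within the chow range. Every 8-week library lay below chow in 14.8% of all genes, and every 16-week library in 23.3%. The subfamily summed to 1972 ± 700.2 CPM in 8-week livers, 1926 ± 341 CPM in 16-week livers and 8591 ± 1817 CPM in chow livers (SD, n = 8, 8 and 5). Cyp3a11 (chr5:145854426-145879964), the PXR target seen as the counterpart of human CYP3A4, made up most of that sum. Cyp3a11 had 537 to 2709.8 CPM (median 1879) in 8-week livers, 1157 to 2325 CPM (median 1809) in 16-week livers and 10664, 8755, 7027, 7483 and 6025 CPM in the chow livers. It was 4.52-fold lower at 8 weeks and 4.51-fold lower at 16 weeks. Log2 changes were -2.18 ± 0.26 at 8 weeks (adjusted p = 1.03e-06) and -2.17 ± 0.26 at 16 weeks (adjusted p = 5.16e-07), and no diet-fed liver reached the chow range. The largest fall was that of Cyp3a59 (chr5:146079257-146113287). Cyp3a59 had 2.09 to 5.63 CPM (median 3.66) in 8-week livers, 2.59 to 5.38 CPM (median 3.86) in 16-week livers and 39.5, 28.7, 25.1, 34.7 and 21.8 CPM in the chow livers. Its log2 change was -2.94 ± 0.21 at 8 weeks (adjusted p = 2.88e-09) and -2.95 ± 0.21 at 16 weeks (adjusted p = 9.38e-10). Cyp3a25, Cyp3a16, Cyp3a41b, Cyp3a44 and Cyp3a13 also fell, with log2 changes of -1.96 ± 0.27, -2.22 ± 0.31, -2.42 ± 0.38, -1.50 ± 0.27 and -1.15 ± 0.18 at 8 weeks. At 16 weeks these were -2.19 ± 0.28, -2.16 ± 0.30, -2.22 ± 0.37, -1.13 ± 0.27 and -1.72 ± 0.18. Scaled by total counts, Cyp3a44 did not pass at 16 weeks (-0.59, adjusted p = 0.0999). Of these genes only Cyp3a13 passed between the times, with -0.56 ± 0.16 (adjusted p = 0.0199) for 16 against 8 weeks. That fall of Cyp3a13 between the times did not pass with total counts as the scale.

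Cyp3a57 (chr5:145345279-145390926), at the other end of the same cluster, was the member that rose. Cyp3a57 had 0.263 to 1.11 CPM (median 0.504) in 8-week livers, 1.11 to 1.64 CPM (median 1.32) in 16-week livers and 0.257, 0.0574, 0.270, 0.116 and 0 CPM in the chow livers. The 16-week livers lay above all chow and all 8-week livers, whereas the 8-week livers overlapped with chow. The change in log2 was 2.14 ± 0.52 at 8 weeks (adjusted p = 0.00198) and 3.31 ± 0.52 at 16 weeks (adjusted p = 1.88e-05), and that of 16 against 8 weeks was 1.17 ± 0.37 (adjusted p = 0.0311). Cyp3a57 could only be tested because of its counts on the diet, so the adjusted p-values against chow are no separate support for the rise. Leaving out 8-week replicate 4 or 5 or 16-week replicate 5, 7 or 8 ended the difference between the times (log2 change 1.06 to 1.15, adjusted p = 0.0504 to 0.0585). Its coding sequence was 94.2% identical to that of Cyp3a59, and 8.63% of its 50-base stretches occur in another gene. Their promoters, the 250 bases before the RefSeq start (GRCm38.p6, + strand) at chr5:145345019-145345268 and chr5:146079008-146079257, were 90.1% identical. They are shown, with capitals at the bases that differ or have no partner, since these near copies moved apart.
Cyp3a57: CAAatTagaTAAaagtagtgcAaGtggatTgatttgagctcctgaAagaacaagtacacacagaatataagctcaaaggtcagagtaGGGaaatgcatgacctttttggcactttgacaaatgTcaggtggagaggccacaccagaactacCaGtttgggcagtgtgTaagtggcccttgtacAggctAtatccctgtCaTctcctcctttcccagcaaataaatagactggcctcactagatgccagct
Cyp3a59: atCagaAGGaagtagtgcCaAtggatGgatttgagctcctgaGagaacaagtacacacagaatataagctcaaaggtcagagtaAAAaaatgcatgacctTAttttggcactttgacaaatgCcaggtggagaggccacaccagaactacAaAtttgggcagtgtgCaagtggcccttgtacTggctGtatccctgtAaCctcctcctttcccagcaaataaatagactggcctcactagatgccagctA

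Cyp2c genes oxidise drugs and make epoxides of arachidonic acid. Of the 13 measured, 6 fell and 2 rose at 8 weeks, and 10 fell and 1 rose at 16 weeks. Among all genes 20.5% fell and 30.8% rose at 8 weeks, and 22.5% fell and 29.4% rose at 16 weeks. The subfamily summed to 1363 ± 376 CPM in 8-week livers, 862 ± 233 CPM in 16-week livers and 4290.4 ± 172 CPM in chow livers (SD, n = 8, 8 and 5). Cyp2c29 (chr19:39269405-39330713), a CAR target, had the largest fall. Cyp2c29 had 21.6 to 183 CPM (median 70.6) in 8-week livers, 17.5 to 51.1 CPM (median 28.6) in 16-week livers and 2012, 2222, 2308, 2208 and 2323 CPM in the chow livers. It was 26.9-fold lower at 8 weeks and 68.1-fold lower at 16 weeks. In log2 units the change was -4.75 ± 0.40 at 8 weeks (adjusted p = 1.76e-08) and -6.09 ± 0.42 at 16 weeks (adjusted p = 7.31e-10). It was also lower at 16 than at 8 weeks, with -1.34 ± 0.34 (adjusted p = 0.00917), although the libraries of the times overlapped. Per exon length it was number 4 of the P450 genes in chow livers (1555 ± 139 TPM, counts scaled per exon length and then to library size, SD, n = 5). On the diet it was number 27 at 8 weeks and 28 at 16 weeks.

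Cyp2c70, which makes muricholic acids and so gives mouse bile its hydrophilic bile acids, fell at both times, with log2 changes of -1.22 ± 0.19 at 8 weeks (adjusted p = 2.26e-05) and -1.75 ± 0.19 at 16 weeks (adjusted p = 1.24e-07). Cyp2c55, another CAR target, had a log2 change of -2.93 ± 0.26 at 8 weeks (adjusted p = 3e-08) and -2.27 ± 0.26 at 16 weeks (adjusted p = 2.54e-07), with all diet-fed livers below chow. It was higher at 16 than at 8 weeks, with 0.67 ± 0.23 (adjusted p = 0.0447), and without replicate 3 at 8 weeks this did not pass (0.58, adjusted p = 0.0559). Cyp2c37, Cyp2c50 and Cyp2c54 did not pass at 8 weeks (-0.86 ± 0.38, -0.44 ± 0.37 and -0.95 ± 0.53). At 16 weeks they fell, with -1.91 ± 0.38, -1.23 ± 0.37 and -2.22 ± 0.54 (adjusted p = 0.000241, 0.00765 and 0.00151). Scaled by total counts Cyp2c50 no longer passed at 16 weeks (-0.72, adjusted p = 0.116). Cyp2c69 and Cyp2c40, mainly female transcripts at under 3 CPM in every library, fell at both times. Their log2 changes were -3.00 ± 0.48 and -2.94 ± 0.76 at 8 weeks and -3.08 ± 0.45 and -2.57 ± 0.72 at 16 weeks. More than 50% of the 50-base stretches of both occur in other Cyp2c genes (54.3% and 60.3%), so their counts may be split between copies. Cyp2c23 fell, with -0.56 ± 0.20 at 8 and -0.95 ± 0.20 at 16 weeks, and Cyp2c67 at 16 weeks only passed, with -0.95 ± 0.21 (8 weeks -0.48 ± 0.21, adjusted p = 0.0586).

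Cyp2c39 rose. Cyp2c39 had 0.209 to 1.72 CPM (median 1.42) in 8-week livers, 0.692 to 1.83 CPM (median 1.32) in 16-week livers and 0.515, 0.688, 0.607, 0.463 and 0.548 CPM in the chow livers. On the log2 scale the change was 1.09 ± 0.34 at 8 weeks (adjusted p = 0.0108) and 1.20 ± 0.33 at 16 weeks (adjusted p = 0.00491), and only the 16-week livers lay wholly above chow. Cyp2c68 rose a little at 8 weeks (0.44 ± 0.16, adjusted p = 0.0263) and did not pass at 16 weeks (-0.26 ± 0.16, adjusted p = 0.167). Between the times it was lower at 16 weeks, at -0.71 ± 0.14 (adjusted p = 0.00158). That difference of Cyp2c68 did not pass when scaled by total counts. Cyp2c38 did not pass at either time, with 0.65 ± 0.29 and 0.44 ± 0.29.

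Near copies in the Cyp2a subfamily also parted. Cyp2a5 (chr7:26835305-26843548), the coumarin hydroxylase, fell. Cyp2a5 had 77.9 to 249 CPM (median 162) in 8-week livers, 95.3 to 293 CPM (median 168) in 16-week livers and 397, 439, 318, 437 and 328 CPM in the chow livers. All diet-fed livers lay below the chow range. The test gave log2 changes of -1.25 ± 0.26 at 8 weeks (adjusted p = 0.000581) and -1.18 ± 0.26 at 16 weeks (adjusted p = 0.000705). Cyp2a22 (chr7:26931631-26939384) rose. Cyp2a22 had 1.75 to 8.08 CPM (median 3.13) in 8-week livers, 3.28 to 6.60 CPM (median 3.73) in 16-week livers and 0.368, 0.488, 0.540, 0.492 and 0.274 CPM in the chow livers. Here all diet-fed livers lay above the chow range, with log2 changes of 3.23 ± 0.38 at 8 weeks (adjusted p = 8.05e-07) and 3.24 ± 0.38 at 16 weeks (adjusted p = 3.67e-07). Cyp2a12, 96.95% identical to Cyp2a22 in coding sequence, fell slightly, with -0.34 ± 0.13 at 8 weeks (adjusted p = 0.0405) and -0.76 ± 0.13 at 16 weeks (adjusted p = 6.33e-05). With total counts as the scale neither fall of Cyp2a12 passed (-0.24 and -0.23). Cyp2a4, the steroid 15-alpha-hydroxylase that is mainly female in mice, varied most. Cyp2a4 had 0.177 to 3.21 CPM (median 0.533) in 8-week livers, 0.765 to 27.1 CPM (median 2.08) in 16-week livers and 3.86, 0.516, 0.169, 0.116 and 0.247 CPM in the chow livers. The highest 16-week values were 27.1 CPM in replicate 2 and 13.5 CPM in replicate 8, and the groups overlapped. Its fitted log2 change was -0.25 ± 0.99 at 8 weeks (adjusted p = 0.847) and 2.78 ± 1.05 at 16 weeks (adjusted p = 0.0316), and 3.02 ± 0.88 (adjusted p = 0.021) for 16 against 8 weeks. Its coding sequence is 98.5% identical to that of Cyp2a5, and 38.01% of its 50-base stretches occur in other genes. The calls for Cyp2a4 rested on single libraries. Of the 21 refits that each left out 1 library, 6 ended the 16-week call and 1 that of 16 against 8 weeks. At 16 weeks the log2 change was 1.92 without 16-week replicate 2 (adjusted p = 0.0989) and 2.54 without 16-week replicate 8 (adjusted p = 0.0538). Without chow replicate 2, 3, 4 or 5 it was 2.48 to 2.61 (adjusted p = 0.0715 to 0.0753). That of 16 against 8 weeks was 2.17 without 16-week replicate 2 (adjusted p = 0.0667). At 8 weeks, where Cyp2a4 was not called, the change was 1.61 without chow replicate 1, the opposite sign.

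In family 1, which AhR switches on, Cyp1a2, the hepatic oxidase of caffeine and aromatic amines, was lower at 16 weeks. Cyp1a2 had 325 to 787 CPM (median 506) in 8-week livers, 135 to 564 CPM (median 465) in 16-week livers and 722, 789.8, 924, 1021 and 855 CPM in the chow livers. The 16-week livers lay below the chow range and the 8-week livers overlapped with it. The log2 change was -0.63 ± 0.29 at 8 weeks (adjusted p = 0.0678) and -1.11 ± 0.28 at 16 weeks (adjusted p = 0.00247). Leaving out 8-week replicate 1 or 5 or 16-week replicate 2 or 8 made the 8-week call (log2 change -0.72 to -0.63, adjusted p = 0.0312 to 0.0449). Scaled by total counts Cyp1a2 did not pass at 16 weeks (-0.59, adjusted p = 0.106). Cyp1a1, the enzyme of polycyclic aromatic hydrocarbons, stayed at 0 to 2.16 CPM in all libraries and did not pass at either time (-0.45 ± 0.40 and -0.40 ± 0.40). Cyp1b1, which elsewhere in the body is mostly made by mesenchymal cells, rose. Cyp1b1 had 1.18 to 7.26 CPM (median 3.42) in 8-week livers, 6.44 to 15.1 CPM (median 8.21) in 16-week livers and 0.809, 0.918, 1.82, 1.16 and 2.44 CPM in the chow livers. All 16-week livers were above chow, and the 8-week livers overlapped with chow. Log2 changes were 1.42 ± 0.34 at 8 weeks (adjusted p = 0.00198) and 2.63 ± 0.36 at 16 weeks (adjusted p = 3.28e-06), and 1.21 ± 0.28 (adjusted p = 0.00553) for 16 against 8 weeks. The fibroblast marker sums given above were higher in the same order of groups, and their part in this rise was not tested.

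Cyp2d genes fell mainly at 16 weeks, with 3 of 8 lower at 8 and 5 at 16 weeks. None passed the test upwards with TMM scaling. The background with TMM was 20.5% lower and 30.8% higher at 8 weeks, and 22.5% lower and 29.4% higher at 16 weeks. With total counts 2 were lower and 1, Cyp2d26, higher at 8 weeks (background 9.76% lower and 35.2% higher). At 16 weeks 3 were lower and 1, Cyp2d12, higher on that scale (background 5.76% lower and 49.4% higher). Cyp2d9 (chr15:82433437-82456845), the male-specific testosterone 16-alpha-hydroxylase, fell most. Cyp2d9 had 190.0 to 703 CPM (median 311) in 8-week livers, 63.7 to 369 CPM (median 198) in 16-week livers and 717, 1019, 992, 1178 and 921 CPM in the chow livers. The chow livers lay above all diet-fed livers. Its log2 change was -1.34 ± 0.34 at 8 weeks (adjusted p = 0.00282) and -2.24 ± 0.34 at 16 weeks (adjusted p = 1.27e-05), and that of 16 against 8 weeks was -0.90 ± 0.31 (adjusted p = 0.0413). Leaving out 8-week replicate 1, 4 or 5 or 16-week replicate 2, 3, 5, 6 or 8 ended the difference between the times (log2 change -0.90 to -0.71, adjusted p = 0.0546 to 0.0936). That difference of Cyp2d9 did not pass with total counts as the scale either (-0.54, adjusted p = 0.182). Nor did it pass with no filter (-0.87, adjusted p = 0.0712) or with only the diet groups fitted (-0.89, adjusted p = 0.0815). Cyp2d26 was the most abundant Cyp2d transcript per length on chow. Cyp2d26 had 631 to 1943 CPM (median 944) in 8-week livers, 519 to 726 CPM (median 656) in 16-week livers and 759, 825, 779.6, 946 and 747 CPM in the chow livers. Against chow it did not pass, with 0.34 ± 0.19 at 8 weeks (adjusted p = 0.141) and -0.31 ± 0.19 at 16 weeks (adjusted p = 0.173). It was lower at 16 than at 8 weeks, with -0.65 ± 0.17 (adjusted p = 0.0103). Without 8-week replicate 3 the 16-week change from chow passed (-0.32, adjusted p = 0.0213). With total counts as the scale the 8-week difference passed (0.37, adjusted p = 0.00448). The 16-week difference from chow then had the other sign (0.21, adjusted p = 0.0729) and that between the times did not pass (-0.16, adjusted p = 0.156).

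Cyp2d10 turned on 1 library. Cyp2d10 had 278 to 3336 CPM (median 515) in 8-week livers, 175 to 343 CPM (median 279.7) in 16-week livers and 489, 501, 526, 607 and 512 CPM in the chow livers. Replicate 3 at 8 weeks held the 3336 CPM, and the other 8-week livers reached at most 604 CPM. In log2 units the change was 0.64 ± 0.46 at 8 weeks (adjusted p = 0.246) and -0.94 ± 0.44 at 16 weeks (adjusted p = 0.0797), neither past the threshold, and -1.58 ± 0.40 (adjusted p = 0.01) for 16 against 8 weeks. Without that library it was -0.21 at 8 weeks (adjusted p = 0.347), -0.95 at 16 weeks (adjusted p = 7.36e-05) and -0.74 between the times (adjusted p = 0.00233). Cyp2d40, Cyp2d11, Cyp2d34 and Cyp2d22 fell at 16 weeks, with -1.53 ± 0.37, -1.57 ± 0.37, -1.30 ± 0.39 and -0.86 ± 0.15. At 8 weeks Cyp2d11 and Cyp2d22 had passed (-1.17 ± 0.37 and -0.46 ± 0.15). Cyp2d12 did not pass at either time (0.23 ± 0.35 and 0.37 ± 0.35).

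Cyp2e1 (chr7:140763739-140774987), the ethanol-oxidising and acetone-oxidising P450 of pericentral hepatocytes, was the most abundant member per length in every group. Cyp2e1 had 859.7 to 10206 CPM (median 6088) in 8-week livers, 1652 to 6426 CPM (median 5109) in 16-week livers and 4482, 5986, 6138, 6646 and 5228 CPM in the chow livers. All groups overlapped, and neither the 16-week change (-0.33 ± 0.39, adjusted p = 0.509) nor that between the times (-0.43 ± 0.34, adjusted p = 0.386) passed. Its share of all P450 TPM was 44.7% at 8 weeks and 45.7% at 16 weeks, against 25.8% on chow. Replicates 2 and 8 of the 16-week livers held the lowest values of that group, 1652 and 1803 CPM. In the same libraries the 7 pericentral markers summed to 1118 and 1204 CPM, below the chow range of 1798 to 2421 CPM. The part of these livers' pericentral cells in the result was not tested.

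Cyp2f2, which activates naphthalene and is a periportal transcript in mouse liver, fell. Cyp2f2 had 137 to 1121 CPM (median 726) in 8-week livers, 286 to 601 CPM (median 349) in 16-week livers and 2010.0, 1745, 1763, 2678 and 1829 CPM in the chow livers. The change in log2 was -1.51 ± 0.32 at 8 weeks (adjusted p = 0.000597) and -2.29 ± 0.32 at 16 weeks (adjusted p = 4.04e-06), and no diet-fed liver overlapped with chow. Periportal markers fell as well, 6 of 7 at each time, with sums of 1368 to 6969 CPM (median 4166) in 8-week livers, 2679 to 4312 CPM (median 3292) in 16-week livers and 10065 to 16367 CPM (median 10883) in chow livers. Of the 7 pericentral markers 3 rose and none fell at each time. Among all genes 30.8% rose and 20.5% fell at 8 weeks, and 29.4% rose and 22.5% fell at 16 weeks. Whether the zone of origin plays a part in the fall of Cyp2f2 was not tested.

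Cyp2j5, an arachidonic acid epoxygenase, fell. Cyp2j5 had 148 to 572 CPM (median 369) in 8-week livers, 177 to 342 CPM (median 242) in 16-week livers and 930.5, 845, 777, 911 and 793 CPM in the chow livers. All diet-fed livers lay below the chow range, with a log2 change of -1.13 ± 0.23 at 8 weeks (adjusted p = 0.000418) and -1.73 ± 0.23 at 16 weeks (adjusted p = 2.18e-06). Cyp2j9 fell with it (-1.49 ± 0.19 and -1.62 ± 0.19), while Cyp2j6 did not pass (0.10 ± 0.14 and -0.16 ± 0.14). Cyp2r1, the vitamin D 25-hydroxylase, fell without overlap. Cyp2r1 had 10.03 to 15.3 CPM (median 12.02) in 8-week livers, 6.93 to 10.3 CPM (median 9.22) in 16-week livers and 20.7, 25.1, 22.5, 25.3 and 22.4 CPM in the chow livers. The test gave log2 changes of -0.93 ± 0.12 at 8 weeks (adjusted p = 2.55e-06) and -1.39 ± 0.12 at 16 weeks (adjusted p = 6.93e-09). Cyp2u1, a fatty acid hydroxylase and in mice a mainly male transcript, fell further. Cyp2u1 had 9.24 to 29.3 CPM (median 12.4) in 8-week livers, 4.79 to 9.69 CPM (median 6.60) in 16-week livers and 42.3, 45.3, 34.1, 45.1 and 35.6 CPM in the chow livers. On the log2 scale the change was -1.39 ± 0.25 at 8 weeks (adjusted p = 0.000129) and -2.54 ± 0.25 at 16 weeks (adjusted p = 4.91e-08), and that of 16 against 8 weeks was -1.15 ± 0.23 (adjusted p = 0.00158). Cyp2g1, known from the olfactory epithelium, was under 1 CPM everywhere and fell (-1.03 ± 0.32 and -1.81 ± 0.32). Cyp2s1, an epithelial P450, did not pass at 8 weeks (1.38 ± 0.70) or 16 weeks (1.44 ± 0.70). Without 8-week replicate 3, which held 11.7 CPM of it, the 16-week change passed (1.43, adjusted p = 0.0122). The 8-week value was then 0.37 (adjusted p = 0.53). That of 16 against 8 weeks was 1.06 (adjusted p = 0.0614), against 0.06 ± 0.57 with all libraries. The next highest values of Cyp2s1 were 5.30 and 3.89 CPM in 16-week replicates 1 and 7 and 4.16 CPM in 8-week replicate 6. Together with 8-week replicate 3 these libraries held the highest squamous marker sums (251, 154, 284 and 1757 CPM). The part of squamous tissue in the Cyp2s1 values was not tested.

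The Cyp4a genes, fatty acid omega-hydroxylases, moved in both directions. Cyp4a12a (chr4:115299046-115332815), the male-specific enzyme that makes 20-hydroxyeicosatetraenoic acid, was the most abundant on chow and fell. Cyp4a12a had 15.2 to 61.1 CPM (median 38.96) in 8-week livers, 14.6 to 79.5 CPM (median 33.3) in 16-week livers and 331, 487, 310.1, 667 and 266 CPM in the chow livers. Every diet-fed liver lay below chow. Its fitted log2 change was -3.39 ± 0.40 at 8 weeks (adjusted p = 9.88e-07) and -3.30 ± 0.40 at 16 weeks (adjusted p = 6.74e-07). Cyp4a12b, 98.5% identical to it in coding sequence, fell likewise (-3.10 ± 0.32 and -2.35 ± 0.32), and 48.9% of the 50-base stretches of Cyp4a12a occur in another gene. The PPAR-alpha target Cyp4a31 (chr4:115563649-115579015) rose. Cyp4a31 had 5.15 to 46.4 CPM (median 21.4) in 8-week livers, 15.3 to 30.3 CPM (median 22.9) in 16-week livers and 7.61, 6.34, 6.37, 2.84 and 4.96 CPM in the chow livers. The 16-week livers lay above chow, and the lowest 8-week liver, replicate 3, lay within the chow range. The log2 change was 2.02 ± 0.38 at 8 weeks (adjusted p = 0.000194) and 2.02 ± 0.38 at 16 weeks (adjusted p = 0.000129). Cyp4a10 and Cyp4a14, the best-known PPAR-alpha targets of the group, did not pass. Cyp4a14 had 98.7 to 582 CPM (median 192) in 8-week livers, 79.7 to 239.9 CPM (median 145) in 16-week livers and 379, 207, 31.7, 34.3 and 31.7 CPM in the chow livers. The 5 chow livers themselves were split, with replicates 1 and 2 high for Cyp4a14 and also for Cyp4a10 (185, 137, 48.2, 56.6 and 56.9 CPM). Log2 changes of Cyp4a14 were 1.05 ± 0.59 at 8 weeks (adjusted p = 0.139) and 0.11 ± 0.57 at 16 weeks (adjusted p = 0.894), and those of Cyp4a10 were 0.80 ± 0.36 at 8 weeks (adjusted p = 0.0673) and 0.45 ± 0.36 at 16 weeks (adjusted p = 0.312). Scaled by total counts Cyp4a10 passed at both times (0.98 and 0.98, adjusted p = 0.044 and 0.0361). Cyp4a32 fell (-0.97 ± 0.31 and -1.08 ± 0.31). It did not pass on the scale of total counts (-0.77 and -0.56).

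Cyp4f genes hydroxylate leukotrienes and fatty acids. Cyp4f14, the most abundant on chow, and Cyp4f15 fell at 16 weeks. Cyp4f14 had 178 to 306 CPM (median 216) in 8-week livers, 72.2 to 198 CPM (median 145) in 16-week livers and 338, 316, 318, 319.8 and 255 CPM in the chow livers. Cyp4f15 had 59.03 to 195 CPM (median 89.9) in 8-week livers, 45.3 to 71.8 CPM (median 57.98) in 16-week livers and 198, 124, 132, 125 and 129 CPM in the chow livers. At 16 weeks no library of either overlapped with chow. The log2 change of Cyp4f14 was -0.42 ± 0.21 at 8 weeks (adjusted p = 0.0961) and -1.12 ± 0.21 at 16 weeks (adjusted p = 0.00011). That of Cyp4f15 was -0.47 ± 0.23 at 8 weeks (adjusted p = 0.0874) and -1.27 ± 0.22 at 16 weeks (adjusted p = 7.13e-05), and its 8-week fall passed without replicate 3 (-0.68, adjusted p = 0.00239). Cyp4f13 fell at 16 weeks (-1.02 ± 0.22), Cyp4f17 at both times (-0.85 ± 0.20 and -0.93 ± 0.20), and Cyp4f39, under 1 CPM, at 8 weeks (-0.76 ± 0.31, adjusted p = 0.0497). Cyp4f16 rose without overlap between diet-fed and chow livers, with log2 changes of 2.49 ± 0.40 at 8 weeks (adjusted p = 3.66e-05) and 2.13 ± 0.39 at 16 weeks (adjusted p = 0.000109).

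Cyp4f18, the leukotriene B4 hydroxylase of mouse neutrophils, rose. Cyp4f18 had 2.77 to 50.97 CPM (median 7.36) in 8-week livers, 6.51 to 9.22 CPM (median 8.06) in 16-week livers and 0.515, 0.574, 1.11, 0.898 and 1.10 CPM in the chow livers. The highest value was that of replicate 3 at 8 weeks, and the diet-fed livers did not overlap with chow. Its log2 change was 3.84 ± 0.59 at 8 weeks (adjusted p = 2.47e-05) and 3.25 ± 0.58 at 16 weeks (adjusted p = 7.31e-05). At 8 weeks it was 2.97 without that replicate (adjusted p = 3.16e-08). Exons of Cyp4f18 overlap with those of Zfp961 on the opposite strand, and the labels do not say whether counting used strand. The macrophage marker sums given above were also higher on the diet, and their part was not tested. Outside the Cyp4a and Cyp4f genes, Cyp4v3, a fatty acid hydroxylase, fell. Cyp4v3 had 157 to 359.9 CPM (median 282) in 8-week livers, 213 to 293 CPM (median 256) in 16-week livers and 639, 580.5, 587, 786 and 513 CPM in the chow livers. No diet-fed liver overlapped with chow, and the log2 change was -1.14 ± 0.15 at 8 weeks (adjusted p = 3.48e-06) and -1.27 ± 0.15 at 16 weeks (adjusted p = 4.76e-07). Cyp4b1, best known from the lung, was lower at 16 weeks. Cyp4b1 had 14.7 to 30.9 CPM (median 23.2) in 8-week livers, 9.63 to 17.1 CPM (median 11.97) in 16-week livers and 23.3, 23.3, 18.04, 20.97 and 19.6 CPM in the chow livers. The change in log2 was 0.13 ± 0.18 at 8 weeks (adjusted p = 0.54) and -0.69 ± 0.17 at 16 weeks (adjusted p = 0.00193), and -0.82 ± 0.15 (adjusted p = 0.0011) for 16 against 8 weeks. Scaled by total counts neither passed at 16 weeks (-0.17 against chow and -0.46 against 8 weeks).

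Between the times on the diet, the 4 members that were higher at 16 than at 8 weeks were Cyp1b1, Cyp2a4, Cyp2c55 and Cyp3a57. Among the 19 that were lower, the largest differences were those of Cyp2b9, Cyp2d10, Cyp2d40 (-1.58 ± 0.34, adjusted p = 0.00316) and Cyp2c29. The median difference of 16 against 8 weeks was -0.37 over the 63 measured members and 0.00 over all genes tested. Scaled by total counts, it was 0.10 over the members and 0.38 over all genes. By subfamily the median log2 change against chow was -0.86 at 8 and -1.75 at 16 weeks for Cyp2c, -0.21 and -1.12 for Cyp2d, and -2.07 and -2.17 for Cyp3a. It was -0.08 and -0.49 for Cyp4a and -0.42 and -0.93 for Cyp4f. These medians depended on the scaling. Total counts gave -0.69 and -1.23 for Cyp2c, -0.17 and -0.60 for Cyp2d, and -1.87 and -1.64 for Cyp3a. They gave 0.10 and 0.05 for Cyp4a and -0.34 and -0.40 for Cyp4f.

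Members that lie next to each other did not move as blocks. Joined where gaps were at most 1000000 bases, 7 clusters of 8 to 14 members formed (GRCm38). On chromosome 7 (chr7:25802475-27158668, 13 members), Cyp2b10 fell while Cyp2b13 and Cyp2b9 beside it rose, and Cyp2a22 rose between Cyp2a5 and Cyp2a12, which fell. In the Cyp3a cluster (chr5:145345279-146113287, 8 members) Cyp3a57 at its start rose and the 6 other measured members fell. In the Cyp2c cluster (chr19:39007019-40187333, 14 members) Cyp2c39 rose beyond Cyp2c29 and Cyp2c38. In the Cyp4a cluster (chr4:115106323-115647723, 10 members) Cyp4a31 rose next to Cyp4a32, which fell. The Cyp4f cluster (chr17:32452723-32947402, 8 members) had Cyp4f16 rising next to Cyp4f17, which fell. In the Cyp2d (chr15:82370527-82794294) and Cyp2j (chr4:96027534-96664154) clusters of 8 members each, no member rose with TMM scaling. With total counts as the scale Cyp2d26 passed upwards at 8 weeks, and Cyp2d12 and Cyp2j6 at 16 weeks.

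**Figure D4:**
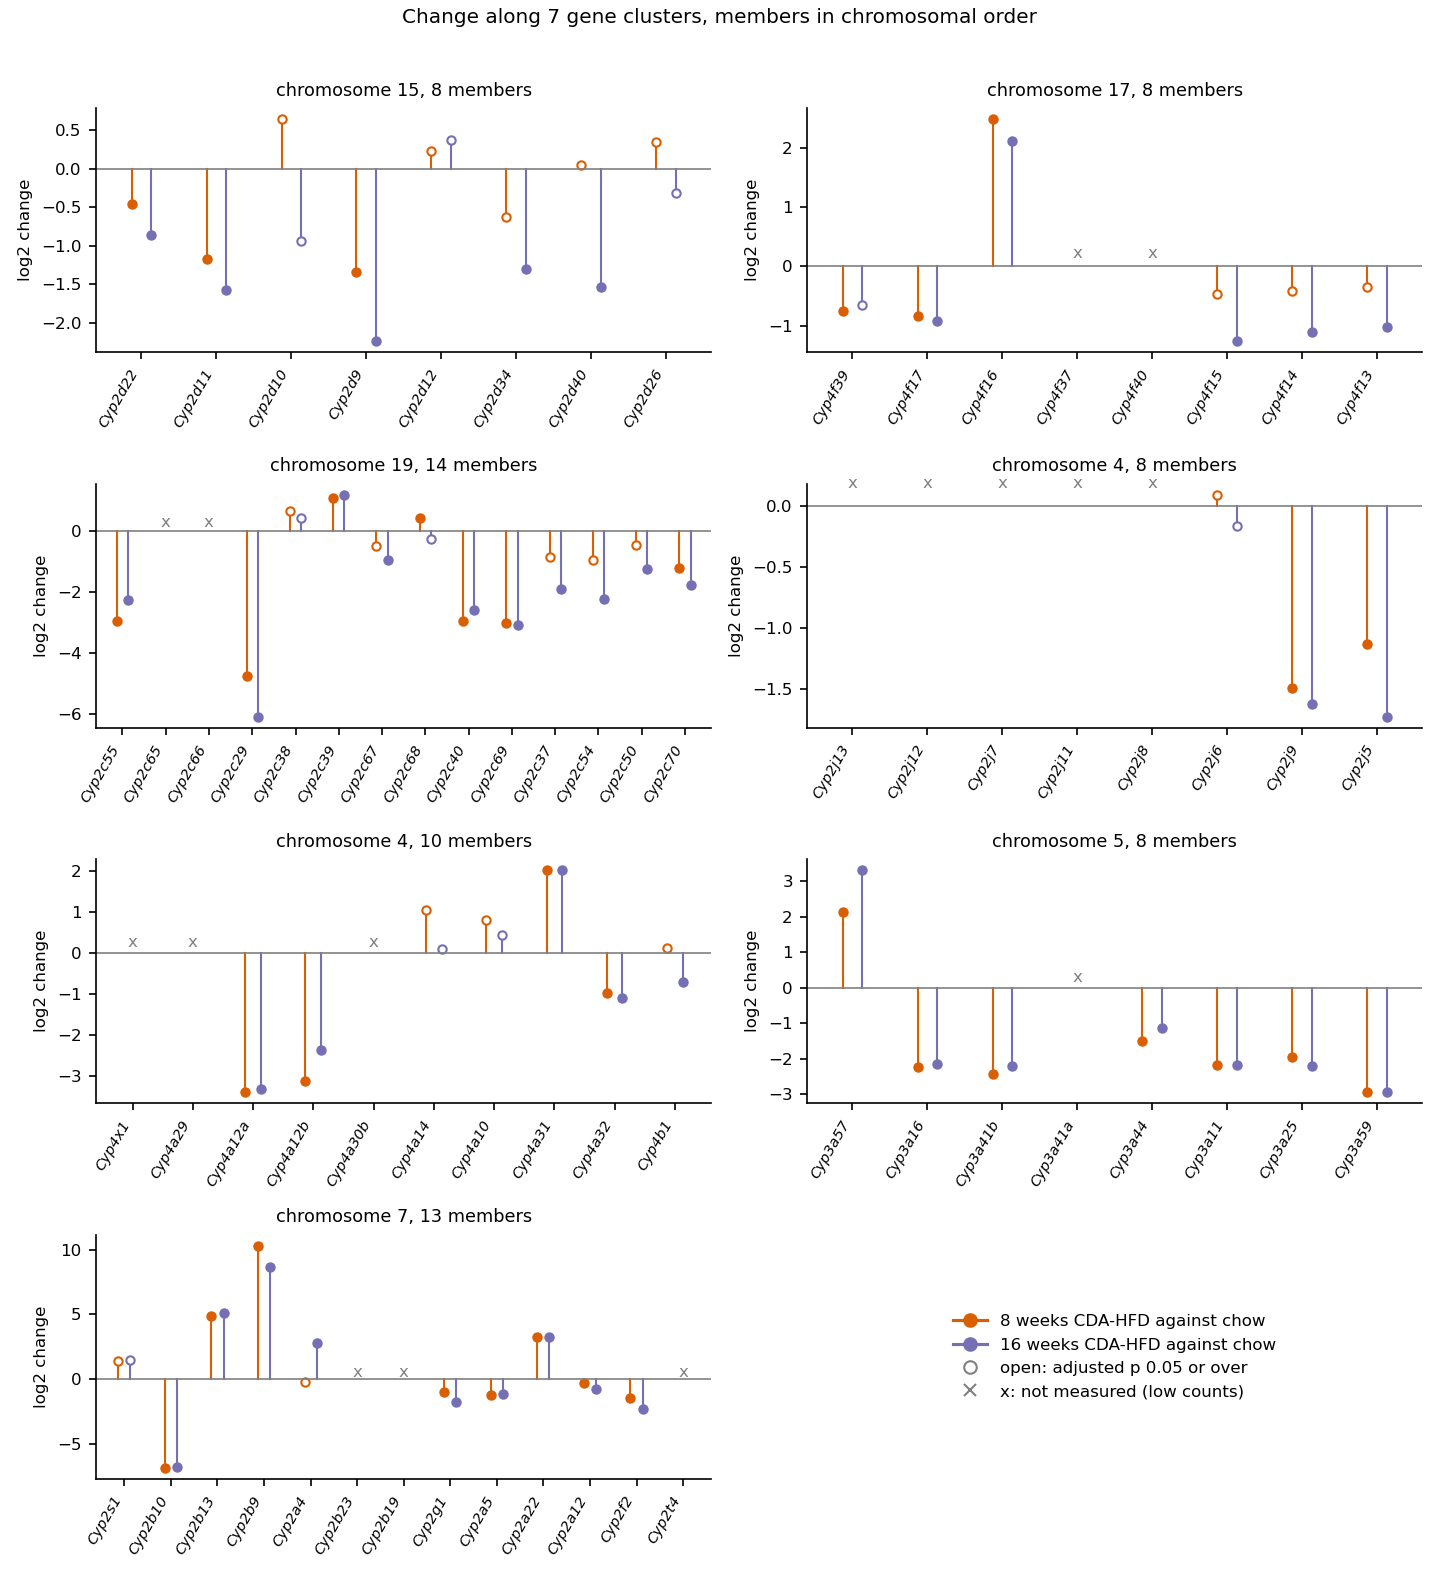
Log2 change against chow (y axis) of the P450 genes in the 7 clusters, in chromosomal order along the x axis, for 8 weeks (orange, left stem) and 16 weeks (violet, right stem) of CDA-HFD. Open points did not pass adjusted p = 0.05 and crosses mark genes with too few counts. Stems of opposite direction stand side by side in the clusters on chromosomes 5, 7, 17 and 19 and in the Cyp4a cluster on chromosome 4.

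Levels of different genes were compared per kilobase of exon, as TPM within a group (mean ± SD, n = 8, 8 and 5). In 8-week livers the order was Cyp2e1 (6857 ± 3019 TPM), Cyp2d26 (1196 ± 120.0), Cyp2f2 (835 ± 372), Cyp3a11 (835 ± 356), Cyp2d10 (824 ± 429) and Cyp1a2 (645 ± 230.1). Those from Cyp2f2 to Cyp1a2 lay within 1 SD of each other, and Cyp2d26 lay within the SD of Cyp2f2. In 16-week livers it was Cyp2e1 (6744 ± 2659 TPM), Cyp2d26 (1174 ± 70.9), Cyp3a11 (1123 ± 194), Cyp2f2 (647 ± 173), Cyp1a2 (637 ± 249) and Cyp2d10 (532 ± 87.7). There Cyp2d26 lay within the SD of Cyp3a11, and Cyp1a2 and Cyp2d10 within that of Cyp2f2. In chow livers the order was Cyp2e1 (5666 ± 855 TPM), Cyp3a11 (3353 ± 677), Cyp2f2 (2115 ± 345), Cyp2c29 (1555 ± 139), Cyp2d26 (969.8 ± 83.3) and Cyp1a2 (919 ± 121). Cyp2d26 and Cyp1a2 overlapped there within their SD.

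Grouped by textbook sex bias, all 4 male-biased members (Cyp2d9, Cyp2u1, Cyp4a12a and Cyp4a12b) fell at both times without overlap with chow. Of all genes, 20.5% fell at 8 weeks and 22.5% at 16 weeks. Those lower without overlap made up 14.8% at 8 weeks and 23.3% at 16 weeks. The 9 female-biased members did not move one way. Of 8 measured, 2 rose at 8 weeks (Cyp2b9 and Cyp2b13) and 3 at 16 weeks (Cyp2a4 in addition). Cyp2c40, Cyp2c69, Cyp3a16, Cyp3a41b and Cyp3a44 fell at both times. The counts of female-biased members that rose are near the shares of all genes that rose, 30.8% at 8 weeks and 29.4% at 16 weeks. Genes of growth hormone action and sex bias gave 4 of 10 lower at 8 weeks, 3 lower at 16 weeks and none higher. The background was 20.5% lower and 30.8% higher at 8 weeks, and 22.5% lower and 29.4% higher at 16 weeks. On the scale of total counts 2 were lower and none higher at 8 weeks (background 9.76% and 35.2%). At 16 weeks 4 were higher and 2 lower on that scale (background 49.4% and 5.76%). The growth hormone receptor Ghr fell, with log2 changes of -1.12 ± 0.19 at 8 weeks (adjusted p = 6.4e-05) and -1.62 ± 0.19 at 16 weeks (adjusted p = 4.14e-07), and its target Igf1 with -0.92 ± 0.12 at 8 weeks (adjusted p = 4.05e-06) and -1.27 ± 0.12 at 16 weeks (adjusted p = 3.02e-08). Stat5b, the transcription factor behind male-specific expression, fell, with -0.65 ± 0.22 at 8 weeks (adjusted p = 0.0194) and -0.63 ± 0.22 at 16 weeks (adjusted p = 0.0231). Scaled by total counts it did not pass (-0.46 and -0.10). Socs2, a feedback inhibitor, fell at 8 weeks (-0.89 ± 0.34, adjusted p = 0.032). Leaving out 8-week replicate 8 or chow replicate 1, 3 or 4 ended the call for Socs2 (log2 change -0.86 to -0.49, adjusted p = 0.0503 to 0.221). Socs2 did not pass either when scaled by total counts (-0.72, adjusted p = 0.109) or when 8-week and chow livers alone were fitted (-0.96, adjusted p = 0.0574). Bcl6 and Cux2, repressors of female-specific and male-specific genes in mice, did not pass (-0.99 ± 0.55 and -0.66 ± 0.55 for Bcl6, 0.22 ± 0.30 and 0.49 ± 0.30 for Cux2), though with total counts Cux2 passed at 16 weeks (1.04, adjusted p = 0.0196).

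Grouped by inducing receptor, the CAR targets Cyp2b10, Cyp2c29, Cyp2c37 and Cyp2c55 gave 3 of 4 lower at 8 weeks and all 4 at 16 weeks, and the PXR target Cyp3a11 fell at both times. AhR targets gave 1 of 3 higher (Cyp1b1) at each time, and Cyp1a2 lower at 16 weeks. PPAR-alpha targets gave 1 of 3 higher (Cyp4a31) at each time. Of all genes, 30.8% rose and 20.5% fell at 8 weeks, and 29.4% rose and 22.5% fell at 16 weeks. The 1 of 3 higher among AhR and among PPAR-alpha targets is near these shares. The transcript of CAR itself, Nr1i3, did not pass at 8 weeks (0.69 ± 0.38, adjusted p = 0.132) or 16 weeks (-0.37 ± 0.37, adjusted p = 0.424). Ahr did not pass either (0.11 ± 0.22 and -0.10 ± 0.22). The transcript of PXR, Nr1i2, fell (-0.47 ± 0.16 and -0.74 ± 0.16), as did Ppara, with -1.32 ± 0.33 at 8 weeks (adjusted p = 0.00244) and -1.39 ± 0.33 at 16 weeks (adjusted p = 0.00124). Of the 20 regulators listed, 9 fell and 2 rose at 8 weeks, and 12 fell and 2 rose at 16 weeks. Beside them 20.5% of all genes fell and 30.8% rose at 8 weeks, and 22.5% fell and 29.4% rose at 16 weeks. With total counts as the scale 7 fell and 2 rose at 8 weeks, where 9.76% of all genes fell and 35.2% rose. At 16 weeks 5 fell and 4 rose on that scale, where 5.76% of all genes fell and 49.4% rose. The largest fall was that of Onecut1, a hepatocyte transcription factor. Onecut1 had 0.904 to 4.92 CPM (median 2.93) in 8-week livers, 0.418 to 4.86 CPM (median 1.47) in 16-week livers and 28.1, 5.45, 25.6, 68.2 and 24.8 CPM in the chow livers. Chow replicate 2 was close to the diet-fed livers. Log2 changes were -3.39 ± 0.56 at 8 weeks (adjusted p = 4.79e-05) and -3.98 ± 0.57 at 16 weeks (adjusted p = 5.15e-06). Among the D-box binding factors Tef fell (-1.03 ± 0.21 and -1.04 ± 0.21), and so did Hlf, with -1.09 ± 0.22 at 8 weeks (adjusted p = 0.000374) and -1.52 ± 0.22 at 16 weeks (adjusted p = 5.66e-06). The clock-driven Dbp rose, with 1.41 ± 0.48 at 8 weeks (adjusted p = 0.0186) and 1.26 ± 0.47 at 16 weeks (adjusted p = 0.0307). Leaving out 16-week replicate 3 or chow replicate 2, 3 or 5 ended the 16-week call (log2 change 0.97 to 1.26, adjusted p = 0.0542 to 0.0749). The labels give no hour of collection.

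Electron supply and haem supply were followed as the partners of P450 enzymes. Of 7 redox partners, 3 fell at 8 weeks and 6 at 16 weeks, and none rose. Of all genes, 20.5% fell and 30.8% rose at 8 weeks, and 22.5% fell and 29.4% rose at 16 weeks. With total counts as the scale 2 fell and 1, Fdxr, rose at 8 weeks, where 9.76% of all genes fell and 35.2% rose. At 16 weeks 2 fell and none rose on that scale, where 5.76% of all genes fell and 49.4% rose. Por, the reductase of the P450 enzymes in the endoplasmic reticulum, fell. Por had 117 to 194 CPM (median 136) in 8-week livers, 97.7 to 171 CPM (median 132) in 16-week livers and 429.8, 233, 321, 296 and 305 CPM in the chow livers. No diet-fed liver overlapped with chow, and the log2 change was -1.14 ± 0.15 at 8 weeks (adjusted p = 3.27e-06) and -1.24 ± 0.15 at 16 weeks (adjusted p = 5.54e-07). Cyb5b, an outer mitochondrial cytochrome b5, fell, with log2 changes of -1.02 ± 0.14 at 8 weeks (adjusted p = 5.48e-06) and -1.49 ± 0.14 at 16 weeks (adjusted p = 2.25e-08), and the haem-binding Pgrmc1 fell with -0.99 ± 0.27 at 8 weeks (adjusted p = 0.0055) and -1.10 ± 0.27 at 16 weeks (adjusted p = 0.00203). Pgrmc1 did not pass with total counts as the scale at 8 weeks (-0.79, adjusted p = 0.0557) or 16 weeks (-0.57, adjusted p = 0.145). Of 14 genes of haem synthesis and breakdown 7 rose and 3 fell at 8 weeks, and 1 rose and 4 fell at 16 weeks. Beside them 30.8% of all genes rose and 20.5% fell at 8 weeks, and 29.4% rose and 22.5% fell at 16 weeks. The 16-week split depended on the scaling and on 1 library. It was 6 higher and 2 lower with total counts (background 49.4% and 5.76%), and 3 higher and 5 lower without 8-week replicate 3 (background 35% and 31.3%). Alas1, the rate-limiting enzyme of haem synthesis in liver, fell. Alas1 had 165 to 339 CPM (median 216) in 8-week livers, 95.8 to 231 CPM (median 145) in 16-week livers and 513, 129.9, 625, 1138 and 624 CPM in the chow livers. Chow replicate 2 lay within the diet range, and the other chow livers lay above it. On the log2 scale the change was -1.36 ± 0.32 at 8 weeks (adjusted p = 0.00144) and -1.99 ± 0.32 at 16 weeks (adjusted p = 2.2e-05). Hmox1, which breaks haem down, rose. Hmox1 had 22.9 to 199.8 CPM (median 154) in 8-week livers, 107 to 157 CPM (median 133) in 16-week livers and 50.5, 33.1, 47.3, 38.5 and 52.01 CPM in the chow livers. The lowest 8-week liver, replicate 3, lay below all chow livers and the other diet-fed livers lay above them. In log2 units the change was 1.68 ± 0.32 at 8 weeks (adjusted p = 0.000205) and 1.60 ± 0.31 at 16 weeks (adjusted p = 0.000218). The haem scavenger Hpx was called at 8 weeks but not at 16 weeks, with 1.39 ± 0.39 at 8 weeks (adjusted p = 0.00629) and 0.10 ± 0.37 at 16 weeks (adjusted p = 0.845). It was lower at 16 than at 8 weeks, with -1.29 ± 0.33 (adjusted p = 0.0107). Alas2, the erythroid form, had -0.74 ± 0.23 at 8 weeks (adjusted p = 0.0117) and -1.50 ± 0.23 at 16 weeks (adjusted p = 1.23e-05).

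**Figure D5:**
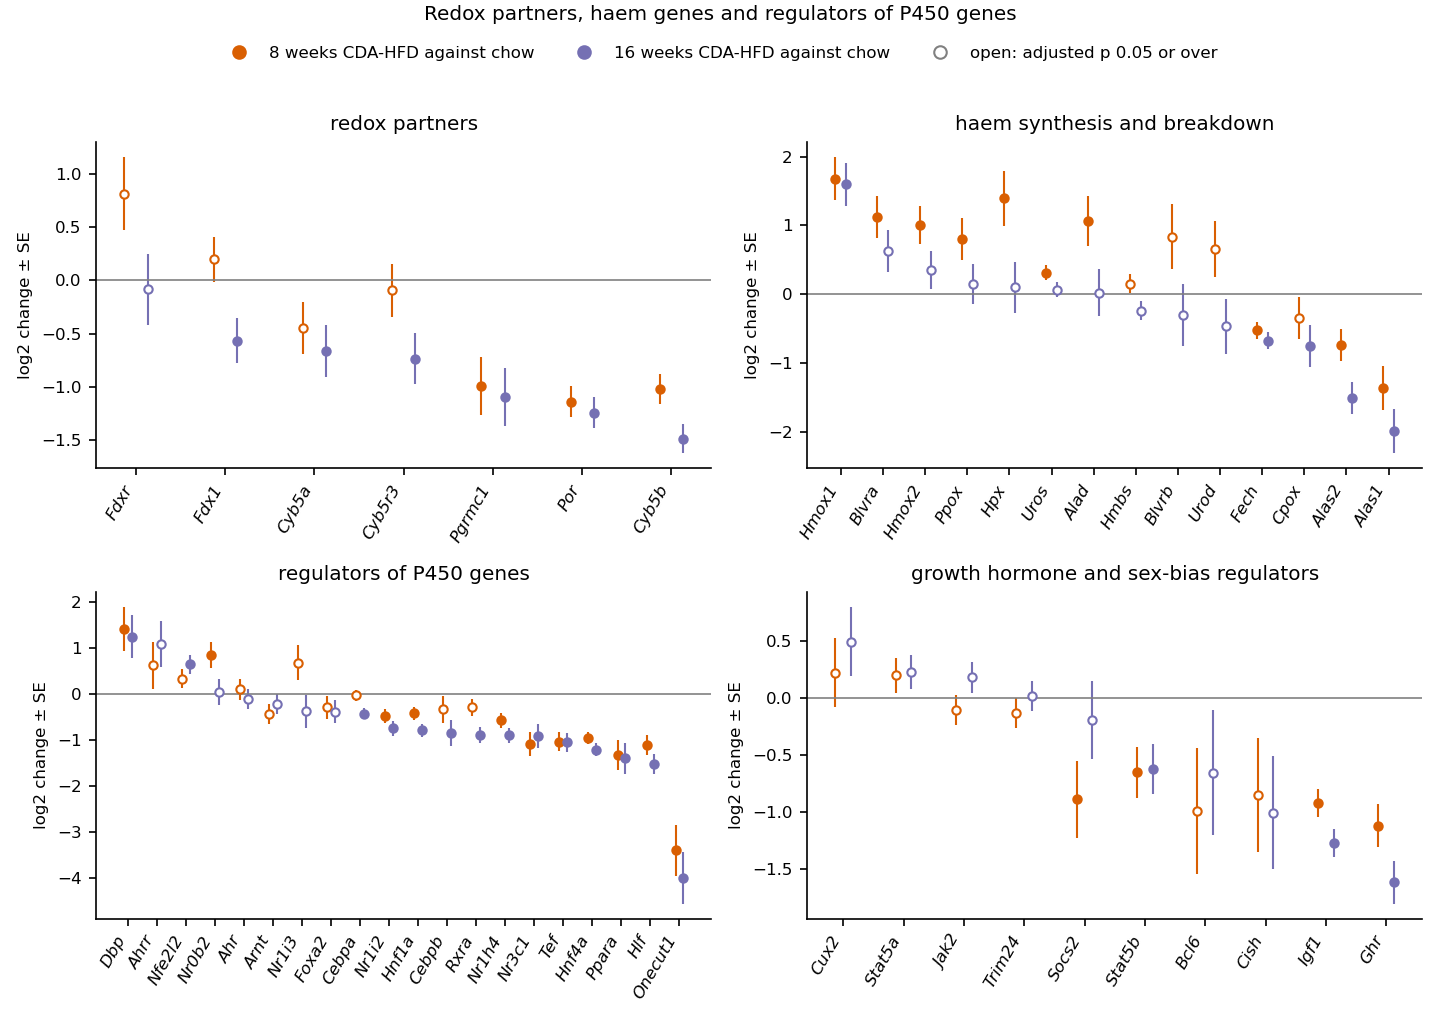
Log2 change against chow (y axis, bars show the SE) of redox partners, haem genes, regulators of P450 genes and growth hormone genes for 8 weeks (orange, left) and 16 weeks (violet, right) of CDA-HFD, with open points where adjusted p was 0.05 or over. Por, Cyb5b, Alas1, Onecut1 and Ghr lie below 0 at both times and Hmox1 above it.

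The P450 genes of family 5 and above act mostly on sterols, bile acids and retinoids. Of 12 measured, 5 were lower and 1 higher at 8 weeks, and 8 were lower and 2 higher at 16 weeks. The background was 20.5% lower and 30.8% higher at 8 weeks, and 22.5% lower and 29.4% higher at 16 weeks. The retinoic acid hydroxylases Cyp26a1 and Cyp26b1 fell at both times. Their log2 changes were -2.34 ± 0.53 at 8 weeks (adjusted p = 0.00121) and -2.83 ± 0.54 at 16 weeks (adjusted p = 0.000146) for Cyp26a1 and -2.25 ± 0.57 at 8 weeks (adjusted p = 0.00268) and -2.44 ± 0.57 at 16 weeks (adjusted p = 0.00108) for Cyp26b1. Whether the share of falling genes differs from that in families 1 to 4 was not tested.

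Promoter sequences were found for 65 of the 80 members (72 promoters, since some genes have several starts) in the RefSeq table for GRCm38.p6. Letters of 5 motifs were searched on both strands of the stretch running 250 bases before to 50 after the start. The D-box TTATGCAA was in 6 P450 promoters (8.33%), against 0.743% of all 32851 promoters. They were those of Cyp2a4, Cyp2a5, Cyp2b10, Cyp2b19, Cyp2b23 and Cyp4f14. All but Cyp4f14 lie in the cluster on chromosome 7, and the promoters of Cyp2a4 and Cyp2a5 were 97.6% identical over the bases before the start. These promoters therefore do not count as independent. The core of the dioxin response element, GCGTG, was in 19.4% of P450 promoters and 32.4% of all. The STAT5 core TTCNNNGAA was in 5.56% and 8.3%. No P450 promoter held 2 copies of AGGTCA in direct repeat with 4 bases or 1 base between them (0.0152% and 0.0396% of all promoters). A match says only that the letters are present.

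The 17 members with too few counts to be tested were Cyp2b19, Cyp2b23, Cyp2c65, Cyp2c66, Cyp2j7, Cyp2j8, Cyp2j11, Cyp2j12, Cyp2j13, Cyp2t4, Cyp2w1, Cyp3a41a, Cyp4a29, Cyp4a30b, Cyp4f37, Cyp4f40 and Cyp4x1. Their counts over all 21 libraries were 0 to 57, the highest for Cyp2j8. Cyp3a41a has 99.9% coding identity with Cyp3a41b, and 98.6% of its 50-base stretches occur in another gene, so its 4 counts say little about its level.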

How the data were processed

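Liver RNA of 21 wild-type mice was extracted with RNeasy and made into stranded total RNA libraries, per the labels' protocols. The authors deposited whole-number read counts per Ensembl gene; the build is GRCm38 per the submitters' processing notes, with aligner, counter and handling of multi-gene reads not given in the sources used here. All 21 sample files held the same counts as the series table. Symbols were found for 52489 of 52636 identifiers in GENCODE M21. Groups came from the labels, replicate numbers from deposit order, and nothing says more of the animals, so p-values measure the spread between these samples only. All 21 libraries entered 1 fit in edgeR 4.0.16 (R 4.3.3) with TMM scaling, genes filtered by filterByExpr (17104 kept, holding 99.961% of counts), the quasi-likelihood test and Benjamini-Hochberg adjustment over all genes. Genes with adjusted p under 0.05 are written as rose, fell or called, and ± after a log2 change is its SE. CPM are counts over TMM-adjusted library sizes, and TPM divide by the length of the merged exons first. The fit was tested on simulated data.

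The members and all gene lists were chosen with earlier results of these data known. Values in every library are given for the member of each main subfamily that was highest per length on chow and for its largest called rise and fall (mean of at least 1 CPM in a group), for other called members reaching 5 CPM, and for the 3 largest called changes between the times. From each other list up to 4 called genes were taken. Cyp1a1, Cyp2b13, Cyp2s1, Cyp4a10, Cyp4a14 and the means of other members were added after their values were seen. Alternatives were DESeq2 1.42.0 and its size factors, total counts alone, no filter, a mean of at least 1 CPM, only the groups compared, each library left out in turn, 8-week replicates 3, 4 and 5 left out, and the 5 libraries richest in squamous transcripts left out. Coding identity and shared 50-base stretches were computed from GENCODE transcripts with Biopython 1.88.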

Additional observations from a re-analysis of the deposited data

Results flagged for a closer look

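In 10 of the 81 groups of samples examined (the 27 members given in every library, in each of 3 groups), 1 library lay far from the others, with a gap to its nearest neighbour that took most of the group's range (Dixon's 95% critical value). In independent groups chance gives such a gap in about 1 in 20. The groups here share the same libraries and their members were picked by their values. Their count can therefore not be set against that rate. Replicate 3 of the 8-week livers held 6 of the 10. In that library Cyp2d10 was the highest of its group at 3336 CPM (others 278 to 604 CPM) and Cyp4f18 at 50.97 CPM (others 2.77 to 10.2 CPM). In the same library Cyp2e1 was lowest at 859.7 CPM (others 4949 to 10206 CPM), Cyp2f2 at 137 CPM (others 523 to 1121 CPM), Cyp2j5 at 148 CPM (others 310.3 to 572 CPM) and Cyp4v3 at 157 CPM (others 267 to 359.9 CPM). Replicate 8 of the 16-week livers was highest for Cyp1b1, at 15.1 CPM (others 6.44 to 9.51 CPM). Among chow livers, replicate 1 was highest for Cyp2a4, at 3.86 CPM (others 0.116 to 0.516 CPM), and for Cyp4f15, at 198 CPM (others 124 to 132 CPM). Chow replicate 5 was lowest for Cyp4f14, at 255 CPM (others 316 to 338 CPM).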

How the results depend on the processing

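Of 3216 values of single genes recomputed under 29 other settings, 3060 kept their direction and their side of the threshold, 124 no longer passed, 23 newly passed and 9 changed sign. Against chow the number of members called stayed within 1.5 times that reported under every setting, at 8 to 12 higher and 23 to 34 lower at 8 weeks and 8 to 15 higher and 30 to 44 lower at 16 weeks. For 16 against 8 weeks, leaving out single libraries gave 2 to 5 higher and 13 to 22 lower. That comparison had 1 higher without 8-week replicates 3, 4 and 5, 5 lower with total counts as the scale, and 29 lower without the 5 libraries richest in squamous transcripts. Values that changed sign were not called in the reported test, apart from Igf1. Cyp2d10 at 8 weeks was -0.26 with DESeq2, -0.37 without 8-week replicates 3, 4 and 5, -0.10 without the squamous-rich libraries and -0.21 to 0.77 with single libraries left out. Single libraries left out also gave -1.09 to 1.61 for Cyp2a4 and -0.0435 to 0.255 for Cyp2e1 at 8 weeks. On the scale of total counts Cyp2d26 was 0.21 and Cyp2e1 0.19 at 16 weeks, and Igf1 was 0.0791 for 16 against 8 weeks. The cause was not tested. No paired analysis was possible because the labels pair no livers between groups. Members with under 1 CPM, such as Cyp2b13, Cyp2g1 and Cyp4f39, rest on few counts, and members with close copies on how shared reads were counted.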

Other observations

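Replicates 2 and 8 of the 16-week livers stood together for some P450 genes known to be pericentral and for glutamine synthetase, and were chosen after their values were seen. They held 135 and 159 CPM for Cyp1a2, where the other 6 livers of the group had 419 to 564 CPM. They held 36.04 and 48.4 CPM for Cyp2c50, where the other 6 livers of the group had 179.9 to 249 CPM. For Cyp2a4, which is mainly a female transcript, they were the highest of that group, with 27.1 and 13.5 CPM, where the other 6 livers of the group had 0.765 to 4.55 CPM. Glutamine synthetase (Glul), a marker of the innermost pericentral hepatocytes, was at 460.3 and 564 CPM, where the other 6 livers of the group had 1378 to 1723 CPM. Their sums of hepatocyte markers, 90595 and 81708 CPM, lay within the range of the group, 73779 to 105809 CPM.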
